A study of Homo sapiens with 4 samples.

Results

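The autophagy core machinery and its cargo receptors were followed in TK6 cells grown under simulated microgravity. The set was a list of 38 gene symbols chosen for what their proteins do, and 37 of them were among the 11415 gene symbols of the expression table. GABARAPL1 was not analysed here. Where a gene had several RefSeq records, the record with the highest mean count stood for it. The list was split by step into initiation (4 genes), supply of phosphatidylinositol 3-phosphate (PI3P) and membrane (12 genes), conjugation (14 of 15 genes), cargo receptors (4 genes) and lysosome (3 genes).

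RNA was sequenced in 2 libraries of simulated microgravity and 2 of static control. TK6 is a human lymphoblastoid line of B cell origin that carries 1 working copy of the thymidine kinase gene, and all libraries came from this line. For simulated microgravity, the cells were kept for 48 h in rotating High Aspect Ratio Vessels at 12 rpm, and the control cells were kept for the same time in vessels that did not turn. The labels give no other agent or genetic change between the conditions. They do not say whether replicate libraries were separate cultures, and if they were not, a p-value here speaks only of the spread among these 4 samples, which may be technical. Over 1 record per gene, the libraries held 57481510 to 64497288 counts, of which the autophagy genes took 0.191% to 0.198%. Of the B cell markers, 6 of 7 were in the table, against 0 of 7 T cell and 0 of 7 erythroid and megakaryocyte markers, 2 of 7 myeloid, 1 of 6 fibroblast and 1 of 6 epithelial markers. In bulk RNA, fewer cells of a kind and less RNA per cell cannot be told apart.

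Macroautophagy encloses cytoplasm in a double membrane, the autophagosome, and delivers it to the lysosome for breakdown. The ULK1 kinase complex starts the process, a PI3-kinase complex built on BECN1 marks the growing membrane with PI3P, and a ubiquitin-like conjugation system couples proteins of the LC3 and GABARAP families to lipid, where cargo receptors such as p62 bind them. Autophagic activity is set largely by protein modification and turnover, which RNA counts do not measure.

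None of the 37 genes passed a false discovery rate (FDR) of 0.1 in edgeR's quasi-likelihood test, with 0 higher and 0 lower, beside 1.10% of all genes tested (27 higher and 99 lower). At an unadjusted p under 0.05 there were 3 of the 37, WDR45B, WIPI1 and SQSTM1, beside 8.08% of all genes, and DESeq2 and limma-voom each also gave 3 at that level and 0 past the FDR. The log2 fold changes, rotated over static libraries, ran from -0.29 to 0.28 with a median of 0.03, beside a median of 0.00067 over all genes, and were above 0 for 24 genes and below 0 for 13. The 95% intervals of all 37 genes lay within a 1.5-fold change in either direction, as did those of 94.8% of all genes. They rest on variances that edgeR shares across genes, from 2 libraries per condition. If replicate libraries were not separate cultures, the intervals, like the p-values, speak only of these 4 samples. The widest bounds were 0.718-fold, for WDR45B, and 1.40-fold, for WIPI1.

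**Figure D1:**
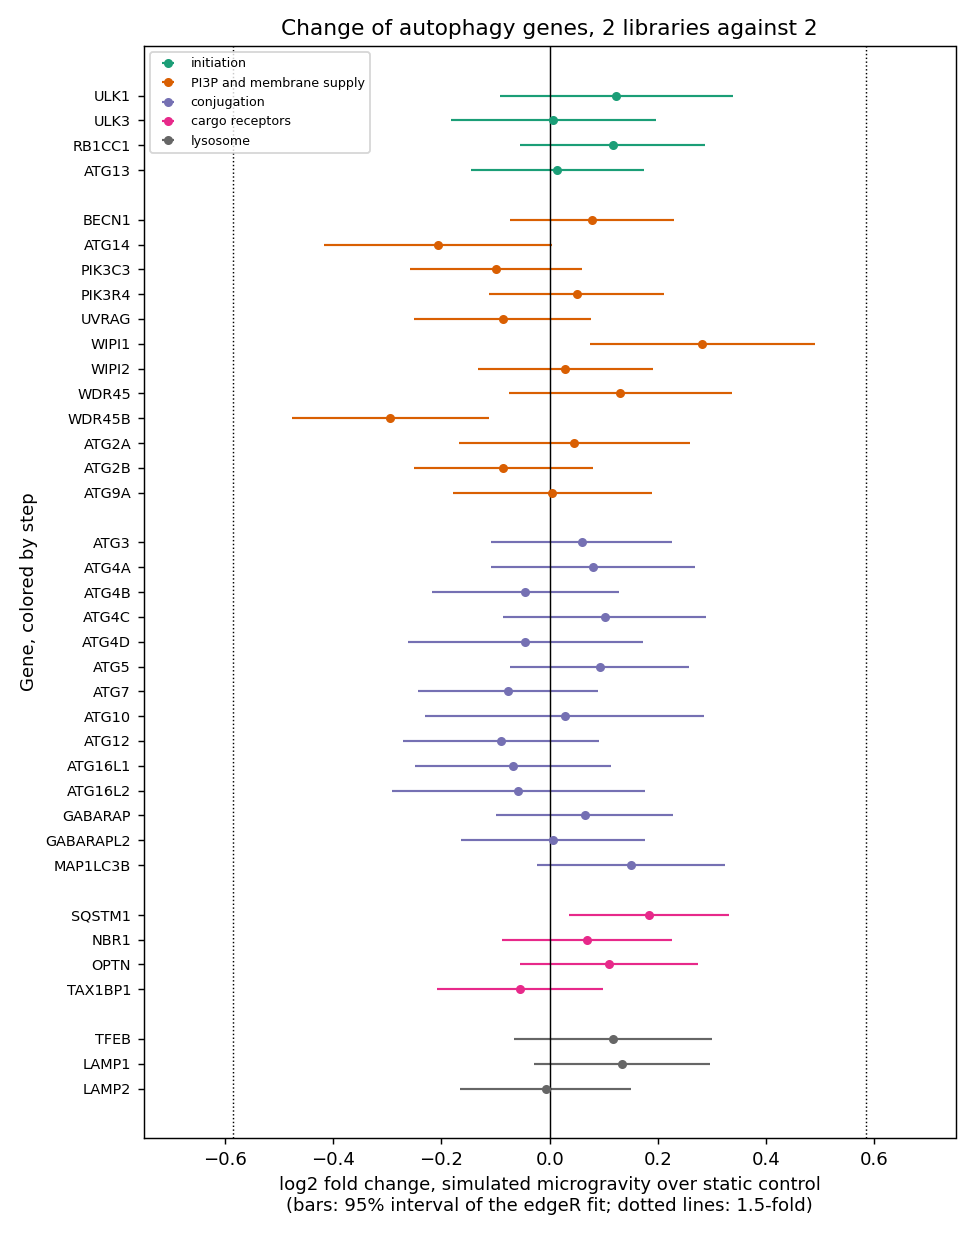
Log2 fold change between conditions (rotated over static) for each of the 37 autophagy genes, ordered by step, with points for the edgeR estimate, bars for its 95% interval (2 libraries per condition) and dotted lines at 1.5-fold. Estimates lie between -0.29 (WDR45B) and 0.28 (WIPI1), and the intervals of WDR45B, WIPI1 and SQSTM1 are those that leave out 0.

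In the fits over 1 record per gene, calls depended on which libraries were kept, in the set and over all genes alike. With all 4 libraries, 0 of the 37 genes passed the FDR, beside 1.10% of all genes. Without simulated microgravity replicate 1, 3 of the 37 genes passed the FDR beside 7.68% of all genes: WDR45B (log2 fold change -0.41, edgeR adjusted p = 0.000725), ATG16L2 (-0.29, edgeR adjusted p = 0.0490) and SQSTM1 (0.21, edgeR adjusted p = 0.0773). Leaving out simulated microgravity replicate 2 gave log2 fold changes of -0.19 (WDR45B), 0.14 (ATG16L2) and 0.16 (SQSTM1). Leaving out static control replicate 1 gave -0.26, 0.03 and 0.20 in the same order. Leaving out replicate 2 of the static control gave -0.33, -0.14 and 0.17. The single static or rotated library left in such a fit is assumed to vary like the pair of the other condition.

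Initiation was the step with 4 of 4 estimates above 0, beside 5732 of all 11415 genes, and 0 genes past the FDR. For all 4 genes the larger difference between replicates of a condition exceeded the difference between conditions. RB1CC1 (FIP200), the scaffold of the ULK1 complex, had the smallest p of the step, with 67.1 and 66.0 CPM (counts scaled to the library's total, here with the TMM factors) in simulated microgravity replicates 1 and 2 and 57.5 and 65.4 CPM in static control replicates 1 and 2. The rotated libraries lay above both controls, with less than 1 CPM between the nearest libraries, simulated microgravity replicate 2 and static control replicate 2. The log2 fold change was 0.12 (standard error 0.08, 95% interval -0.06 to 0.29, edgeR adjusted p = 0.846).

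ULK1, the kinase that receives signals from mTORC1 and AMPK, overlapped between conditions. It had 33.4 and 28.0 CPM in simulated microgravity and 30.8 and 25.5 CPM in static control. Replicate 1 was the higher of the pair in both conditions, and each rotated library lay above the control of the same number, a number not stated to mark a shared culture or day. The log2 fold change was 0.12 (standard error 0.10, edgeR adjusted p = 0.885), smaller than the log2 difference between replicates, 0.25 in simulated microgravity and 0.27 in static control. ULK3, a related kinase, had a log2 fold change of 0.01 and ATG13, which bridges the kinase and the scaffold, one of 0.01, and the libraries of the conditions overlapped for both.

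The PI3P and membrane step held the lowest and the highest estimate of the set, and both belong to the same protein family. WIPI1, WIPI2, WDR45B (WIPI3) and WDR45 (WIPI4) are the 4 human WIPI proteins, beta-propellers that read PI3P on the growing membrane. WDR45B (chr17:80572438-80606411, minus strand, record NM_019613) had 51.3 and 43.9 CPM in simulated microgravity and 59.8 and 57.1 CPM in static control. Both rotated libraries lay below both controls, and simulated microgravity replicate 2 lay lowest. The means were 47.6 ± 5.23 CPM (SD, n = 2) and 58.4 ± 1.90 CPM (SD, n = 2), with a log2 fold change of -0.29 (standard error 0.09, 95% interval -0.48 to -0.11) that did not pass the FDR (edgeR adjusted p = 0.183). The authors' own edgeR analysis, at an FDR under 0.1 over their transcripts, lists WDR45B among the downregulated genes. Why the calls differ was not tested. Over the other settings that kept all 4 libraries, the adjusted p of WDR45B ranged from 0.121 to 0.275 where 1 choice was changed. With all 4 libraries it passed the FDR in 2 fits across all records, those with robust fitting (edgeR adjusted p = 0.0730) and with the replicate block (edgeR adjusted p = 0.0471). The adjusted p ranged from 0.000725 to 0.948 with 1 library left out of the fit over genes, and the log2 fold change from -0.41 to -0.19.

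WIPI1 (chr17:66417422-66453653, minus strand, record NM_017983) lay on the other side. It had 13.9 and 13.9 CPM in simulated microgravity and 10.995 and 11.8 CPM in static control. The rotated pair lay above both controls with little spread, at 13.9 ± 0.00900 CPM (SD, n = 2) against 11.4 ± 0.570 CPM (SD, n = 2). The log2 fold change was 0.28 (standard error 0.10, 95% interval 0.07 to 0.49) and did not pass the FDR (edgeR adjusted p = 0.333).

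The remaining WIPI genes had smaller estimates. WDR45, at 14.7 and 15.0 CPM in simulated microgravity and 14.3 and 12.8 CPM in static control, had a log2 fold change of 0.13 (edgeR adjusted p = 0.854). WIPI2, which recruits ATG16L1, had 56.2 and 55.2 CPM against 54.99 and 54.2 CPM and a log2 fold change of 0.03 (edgeR adjusted p = 0.988). The libraries of the conditions did not overlap for any of the 4 WIPI genes, higher under rotation for WIPI1, WIPI2 and WDR45 and lower for WDR45B, and for WIPI2 the nearest libraries were under 1 CPM apart. Of all genes, 17.9% were higher and 18.1% lower without overlap.

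Within the PI3-kinase complex the estimates lay on both sides of 0. ATG14, the subunit that directs the complex to autophagosome formation, had 12.9 and 11.5 CPM in simulated microgravity and 14.1 and 14.0 CPM in static control. Its log2 fold change was -0.21 (standard error 0.10, 95% interval -0.42 to 0.0037, edgeR adjusted p = 0.637). PIK3C3 (VPS34), the catalytic subunit, and UVRAG, which replaces ATG14 in a second complex that acts on endosomes, were also lower in both rotated libraries, with log2 fold changes of -0.10 and -0.09 (edgeR adjusted p = 0.856 and 0.897). BECN1, the scaffold of both complexes, had 117 and 125 CPM against 114 and 115 CPM, with a log2 fold change of 0.08 (edgeR adjusted p = 0.903), and the pseudokinase PIK3R4 (VPS15) overlapped between conditions at 0.05. BECN1 shares 1456 bases with CNTD1 on the opposite strand, and whether counting used the strand is not given in the sources used here.

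The lipid transfer proteins ATG2A and ATG2B, which feed lipid into the growing membrane, and the scramblase ATG9A, carried on small vesicles, overlapped between conditions. Their log2 fold changes were 0.05, -0.09 and 0.0048. In the step as a whole, 4 of 12 genes were higher and 4 lower in both rotated libraries than in both controls, beside 17.9% and 18.1% of all genes, and the median log2 fold change was 0.02.

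The conjugation step had a median log2 fold change of 0.02, with 8 of 14 estimates above 0. MAP1LC3B (LC3B; chr16:87425801-87438380, plus strand), the LC3 protein most used to follow autophagosomes, had 31.6 and 34.1 CPM in simulated microgravity and 29.9 and 29.3 CPM in static control. Both rotated libraries lay above both controls. The log2 fold change was 0.15 (standard error 0.08, 95% interval -0.02 to 0.32) and did not pass the FDR (edgeR adjusted p = 0.723). MAP1LC3B has a near-identical copy elsewhere in the genome, MAP1LC3B2, and reads placed at more than 1 site were removed before counting, so its count is uncertain.

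The GABARAP family, which acts with LC3 and more at the closing and fusion of autophagosomes, was nearer to 0. GABARAP had 58.8 and 55.9 CPM in simulated microgravity and 54.0 and 55.7 CPM in static control, with a log2 fold change of 0.06 (95% interval -0.10 to 0.23, edgeR adjusted p = 0.946). Its rotated libraries lay above the controls, with less than 1 CPM between the nearest libraries. GABARAPL2 had 41.6 and 40.9 CPM against 42.5 and 39.7 CPM, with overlapping conditions and a log2 fold change of 0.0057 (95% interval -0.16 to 0.18, edgeR adjusted p = 0.994).

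The enzymes of conjugation lay on both sides of 0 and 0 passed the FDR. The E1-like ATG7 was at -0.08, the E2-like ATG3 at 0.06 and the E2-like ATG10, which serves ATG12, at 0.03. The ATG12, ATG5 and ATG16L1 subunits of the ligase complex had log2 fold changes of -0.09, 0.09 and -0.07, and the LC3-processing proteases ATG4A, ATG4B, ATG4C and ATG4D had 0.08, -0.04, 0.10 and -0.04. Of these 10 genes, ATG5 lay higher and ATG7 lower in both rotated libraries than in both controls, and the other 8 overlapped. Of all genes, 17.9% lay higher and 18.1% lower in this way. ATG4D shares 334 bases with KRI1, and ATG7 shares 1596 bases with VGLL4, on the opposite strand.

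ATG16L2, a homolog of ATG16L1, had the widest replicate difference of the set. It had 55.6 and 41.1 CPM in simulated microgravity and 53.3 and 47.3 CPM in static control, a log2 difference between replicates of 0.44 and 0.17 beside a log2 fold change of -0.06 (standard error 0.11, edgeR adjusted p = 0.980). Its call without simulated microgravity replicate 1 rests on the library that was lowest, and its log2 fold change was between -0.29 and 0.14 with 1 library left out.

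**Figure D2:**
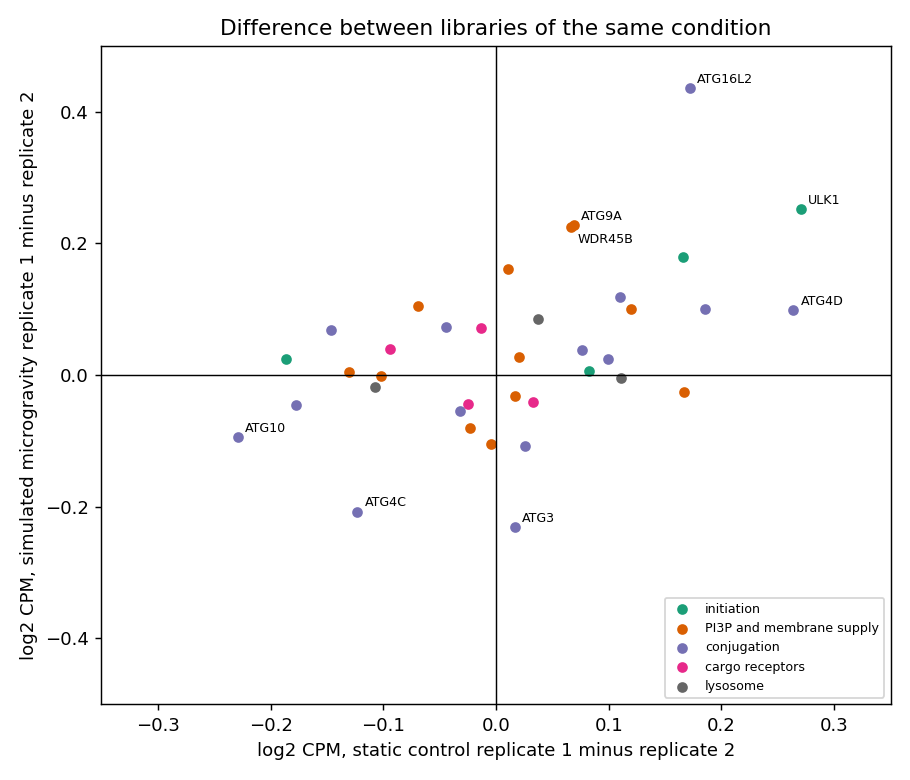
Log2 difference between replicate 1 and replicate 2 of each autophagy gene in static control (horizontal axis) and in simulated microgravity (vertical axis), with 1 point per gene colored by step. ATG16L2 lies highest at 0.44 in simulated microgravity and 0.17 in static control. For 15 of the 37 genes replicate 1 was the higher in both conditions, beside 3360 of all 11415 genes tested.

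For 23 of the 37 genes (62.2%, beside 76.2% of all genes) the larger difference between replicates of a condition exceeded the difference between conditions. Of the 37 genes, 13 were higher in both rotated libraries than in both controls, beside 17.9% of all genes, and 5 were lower, beside 18.1%. The other 19 overlapped.

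Of the cargo receptors, SQSTM1, NBR1 and OPTN were higher in both rotated libraries than in both controls, beside 17.9% of all genes. TAX1BP1 overlapped, and 0 of the 4 genes passed the FDR. SQSTM1 (chr5:179234003-179265077, plus strand, record NM_001142299) encodes p62, which binds ubiquitin on the cargo and LC3 on the membrane and is itself broken down by autophagy. It had 128 and 131 CPM in simulated microgravity and 115 and 113 CPM in static control. The means were 130 ± 2.57 CPM (SD, n = 2) and 114 ± 1.82 CPM (SD, n = 2), so the gap between conditions was wider than the spread within each. The log2 fold change was 0.18 (standard error 0.07, 95% interval 0.04 to 0.33), a mean difference of 13.5%, and did not pass the FDR (edgeR adjusted p = 0.426). The adjusted p of SQSTM1 ranged from 0.370 to 0.479 over the settings that kept all 4 libraries and changed 1 choice. The record shares 812 bases with C5orf45 on the opposite strand.

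NBR1, a p62 relative that binds ubiquitin, had 74.1 and 76.4 CPM in simulated microgravity and 71.1 and 72.3 CPM in static control, with a log2 fold change of 0.07 (edgeR adjusted p = 0.935). OPTN, known for the clearance of mitochondria and bacteria, had 54.6 and 51.9 CPM against 49.1 and 49.6 CPM, with a log2 fold change of 0.11 (95% interval -0.05 to 0.27, edgeR adjusted p = 0.848). TAX1BP1, which joins p62 and NBR1 on ubiquitin condensates, had 105 and 102 CPM against 104 and 111 CPM, with a log2 fold change of -0.05 (edgeR adjusted p = 0.957).

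**Figure D3:**
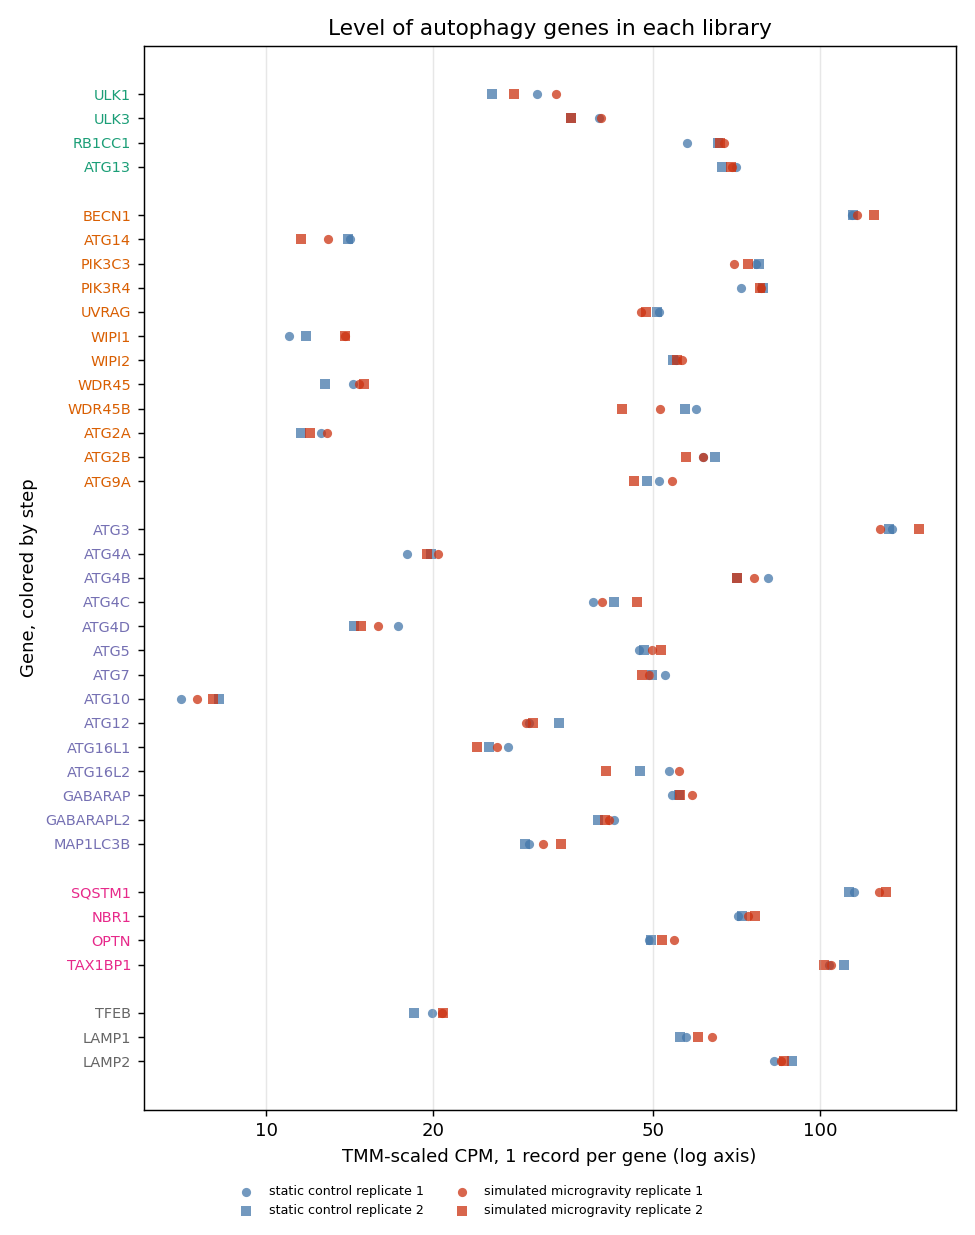
TMM-scaled CPM on a log axis for each of the 37 autophagy genes, with 1 point per library and the conditions in separate colors. Means run from 7.68 CPM (ATG10) to 137 CPM (ATG3). For 19 of the genes the points of the conditions overlap, beside 7313 of all 11415 genes tested.

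At the lysosome, TFEB, the transcription factor that drives autophagy and lysosome genes, had 20.8 and 20.9 CPM in simulated microgravity and 19.95 and 18.5 CPM in static control, and a log2 fold change of 0.12 (95% interval -0.07 to 0.30, edgeR adjusted p = 0.854). TFEB is controlled mainly by where the protein sits in the cell, which these data do not measure. LAMP1, a major protein of the lysosomal membrane, had 63.8 and 60.2 CPM against 57.3 and 55.8 CPM. Both rotated libraries lay above both controls, and the log2 fold change was 0.13 (standard error 0.08, 95% interval -0.03 to 0.30, edgeR adjusted p = 0.749).

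LAMP2, the partner of LAMP1, overlapped at 85.0 and 86.0 CPM against 82.8 and 89.1 CPM, with a log2 fold change of -0.0077 (95% interval -0.17 to 0.15, edgeR adjusted p = 0.993). Its 3 records, which share reads, stand for its splice forms, among them NM_002294 (LAMP2A, the receptor of chaperone-mediated autophagy). Their log2 fold changes were 0.0055 for NM_002294, -0.010 for NM_013995 and -0.0020 for NM_001122606.

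The 37 genes had 80 records, and 18 genes had more than 1. Of the 80 records, 0 passed the FDR in edgeR's quasi-likelihood test across all 22375 records, beside 1.32% of all records, and 6 had an unadjusted p under 0.05, beside 8.40%, with DESeq2 giving 5 and limma-voom 6 at that level and each 0 past the FDR. The smallest adjusted p of a record from that edgeR fit was 0.121, for WDR45B. Records of a gene differed by at most 0.05 in log2 fold change, for ATG12, whose record with the highest count is a noncoding one. TFEB ran from 0.11 to 0.14 over 5 records and SQSTM1 from 0.18 to 0.19 over 3.

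TFEB binds the palindromic E-box of the CLEAR element, so the DNA around each gene's start was searched for it. The window ran from 250 bases before to 50 bases after the start of the measured record on GRCh37. It was searched on both strands for CACGTG (the E-box), GTCACGTG (the CLEAR core, which contains the E-box), TCACGTGA (the CLEAR palindrome, which contains the E-box and overlaps the core) and TGACNNNGC (the antioxidant response element core, the site of NRF2, a regulator of SQSTM1). The E-box was in 4 of 37 windows (10.8%) beside 9.58% of 11408 genes, and the core in 2 (5.41%) beside 4.26%. The palindrome was in 0, beside 1.86%, and the antioxidant core in 2 (5.41%), beside 14.5%. Only 1 start per gene was searched. For SQSTM1 this was the start of NM_001142299 (179234003), and that of NM_003900 (179247842) was not searched. The 4 genes with an E-box in the window were ULK3, ATG14, ATG5 and LAMP1. Their sites, the only ones found in these windows, are shown with the E-box in capitals. Each sequence is read 5′ to 3′ on the strand of the gene.
LAMP1: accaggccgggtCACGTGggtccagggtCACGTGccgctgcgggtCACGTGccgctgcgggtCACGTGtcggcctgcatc
ULK3 distal: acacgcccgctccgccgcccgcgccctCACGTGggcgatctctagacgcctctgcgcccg
ULK3 proximal: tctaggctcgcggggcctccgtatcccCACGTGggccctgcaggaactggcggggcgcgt
ATG5: cggagttcggacCACGTGgggtctcgtgac
ATG14: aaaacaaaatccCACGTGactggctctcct

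The LAMP1 stretch lies at chr13:113951350-113951429 on the plus strand and holds 4 E-boxes, each of them inside a CLEAR core, that begin 107, 91, 74 and 57 bases before the start. LAMP1, with these 4 sites, had the log2 fold change of 0.13 given above. The ULK3 stretches lie at chr15:75135742-75135801 and chr15:75135637-75135696 on the minus strand, 222 and 117 bases before the start to the E-box, and ULK3 had a log2 fold change of 0.01. The ATG5 site lies at chr6:106773691-106773720, 13 bases before the start, and the ATG14 site at chr14:55878552-55878581, 7 bases after it in the first exon, both on the minus strand. Their log2 fold changes were 0.09 and -0.21. The E-box genes therefore lay on both sides of 0, and a match in these letters is a description only.

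The levels of the genes were compared per kilobase, with the length of the MANE Select transcript, which can differ from the counted record. ATG3 stood highest at 87.3 CPM per kb over the 4 libraries, followed by BECN1 at 55.8 CPM per kb. SQSTM1, GABARAP and GABARAPL2 came next at 42.9, 42.5 and 42.3 CPM per kb, and their libraries overlapped, so their order was not resolved. MAP1LC3B, at 14.5 CPM per kb, stood at rank 17 of 37, with libraries from 13.7 to 15.9 CPM per kb. They overlapped those of each gene from ATG13 (rank 11) to ATG9A (rank 19), so its rank was not resolved. Among the WIPI genes the order was WDR45B (21.2 CPM per kb), WIPI2 (12.4), WDR45 (8.89) and WIPI1 (6.62), with no overlap between neighbors in that order. The lowest levels were those of ATG14 (2.79 CPM per kb), ATG10 (2.53) and ATG2A (1.94), and the libraries of ATG14 and ATG10 overlapped.

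Genes around the core machinery were taken from 4 further lists, of which 0 of 80 measured genes passed the FDR by edgeR's quasi-likelihood test, beside 1.10% of all genes. At an unadjusted p under 0.05 stood 6 of the 80, beside 8.08% of all genes, with 5 by DESeq2 and 6 by limma-voom and 0 past the FDR by either. Of the other autophagy genes, 19 of 25 were measured, with a median log2 fold change of 0.08. RUBCN (Rubicon, a brake on the UVRAG complex) had 50.1 and 48.1 CPM in simulated microgravity and 56.7 and 58.1 CPM in static control, with a log2 fold change of -0.23 (edgeR adjusted p = 0.326). CCPG1, a receptor for autophagy of the endoplasmic reticulum, had 52.2 and 59.2 CPM against 47.4 and 49.96 CPM, with a log2 fold change of 0.19 (edgeR adjusted p = 0.540). The conditions did not overlap for either gene, and both were named for having the smallest p of the list. Of the 19 genes, 7 lay higher and 3 lower without overlap, beside 17.9% and 18.1% of all genes.

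For autophagosome-lysosome fusion, 13 of 14 genes were measured, with a median log2 fold change of -0.0096 and 0 of them at an unadjusted p under 0.05. The tethering subunit VPS39 and the SNARE protein SNAP29, with the smallest p of the list, were both at -0.08 (edgeR adjusted p = 0.923 and 0.924). Of the TFEB family and lysosomal genes, 31 of 35 were measured with a median of 0.02. TFE3, a TFEB relative, had 30.9 and 29.0 CPM against 25.9 and 26.5 CPM, with a log2 fold change of 0.19 (edgeR adjusted p = 0.540), and the lysosomal chloride transporter CLCN7 a log2 fold change of 0.21 (edgeR adjusted p = 0.547).

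Of the mTORC1 and AMPK genes that act on ULK1, 17 of 20 were measured with a median of 0.0059. PRKAB2, a subunit of AMPK, had 46.9 and 38.4 CPM in simulated microgravity and 50.3 and 48.8 CPM in static control, with a log2 fold change of -0.22 (edgeR adjusted p = 0.529). RHEB, the GTPase that activates mTORC1, had 98.8 and 98.1 CPM against 89.7 and 86.3 CPM, with a log2 fold change of 0.16 (edgeR adjusted p = 0.570). Without simulated microgravity replicate 1, 6 of the 80 genes passed the FDR beside 7.68% of all genes, among them PRKAB2 at -0.36 (edgeR adjusted p = 0.00637) and TP53INP1, a stress-induced protein that binds LC3, at -0.57 (edgeR adjusted p = 0.00164). With all 4 libraries TP53INP1 had 11.9 and 6.68 CPM in simulated microgravity and 9.66 and 10.2 CPM in static control, overlapping, and a log2 fold change of -0.10 (edgeR adjusted p = 0.980). Without simulated microgravity replicate 2, the saposin precursor PSAP had a log2 fold change of 0.23, against 0.15 with all 4 libraries (edgeR adjusted p = 0.632).

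**Figure D4:**
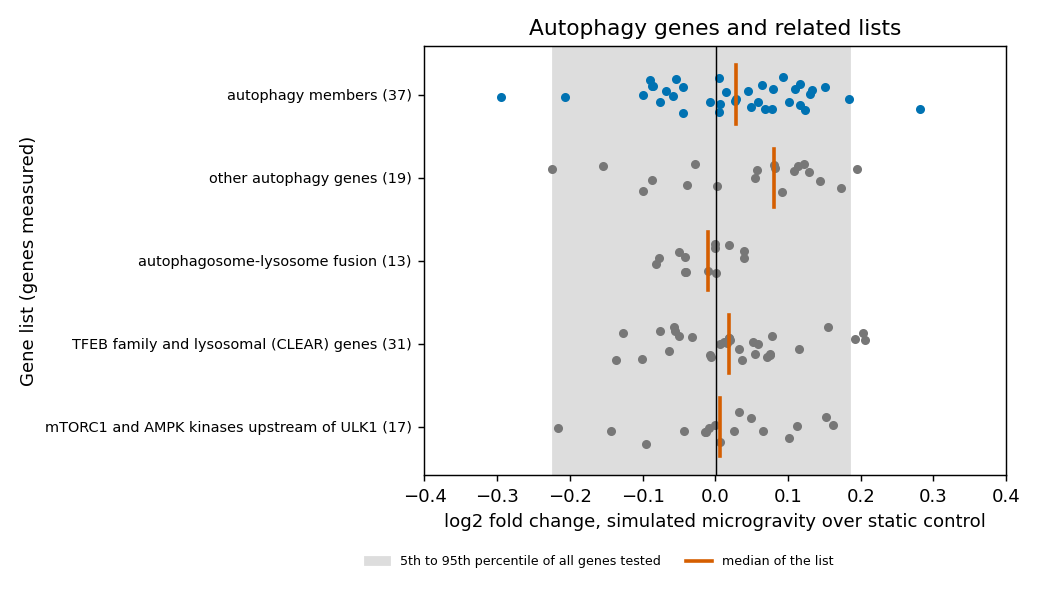
Log2 fold change between conditions of each measured gene in the autophagy set and in the 4 further lists, with 1 point per gene, an orange bar at each list's median and a grey band from the 5th to the 95th percentile of all genes tested (-0.22 to 0.18). Medians lie between -0.0096 (autophagosome-lysosome fusion) and 0.08 (other autophagy genes).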

How the data were processed

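RNA from 4 libraries of TK6 cells (2 per condition) was measured by RNA-seq. The authors aligned reads to hg19 with TopHat (TopHat2 2.0.8 in the submitters' processing notes, another release in the methods), kept reads with a single placement, and obtained counts for each RefSeq record with Bamutils. The deposited counts are whole numbers, not normalized, and records of a gene share reads. The authors' deposited CPM values are those counts scaled to the library's total, and the listed records exceed 1 CPM in at least 1 library. The deposited log2 columns of the authors hold their fold changes and mean CPM, and the deposited p-value columns their test and FDR. Both were left unused. The strand used in counting is not given in the sources used here. All 4 per-library count columns were used, and the authors' per-library CPM columns were not.

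Counts of 1 record per gene (highest mean count) were fitted in R 4.3.3 with edgeR 4.0.16 (filterByExpr, which removed 0 genes, TMM scaling, quasi-likelihood test, Benjamini-Hochberg over 11415 genes, FDR under 0.1). The biological coefficient of variation was 6.77%. Errors are SDs over 2 libraries, and CPM values in the text are scaled by TMM over these records. An exact permutation test of 2 libraries against 2 cannot give p below 0.333, so none was run. Alternatives used DESeq2 1.42.0, limma 3.58.1 (voom), other scalings, filters and records, a replicate block, and each library left out. Record starts in the table count from 0, and printed starts count from 1. Transcript lengths and promoter windows came from GENCODE and the GRCh37 genome, which is the sequence of hg19. Of the further genes, 3 were found under an older symbol (RUBCN as KIAA0226, ATG101 as C12orf44 and RETREG1 as FAM134B).

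The genes and lists were chosen with earlier results of these data known. Any gene of the set may be named. Values per library were given for genes past the FDR or with an unadjusted p under 0.05, the smallest p of each step, SQSTM1, MAP1LC3B, the GABARAP family, TFEB, LAMP1 and LAMP2. Of each further list the 2 genes with the smallest p were named. Values per library of ULK1, WIPI2, WDR45, ATG14, BECN1, ATG16L2, NBR1, OPTN and TAX1BP1 were added after they were seen, as were TP53INP1 and PSAP.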

Additional observations from a re-analysis of the deposited data

How the results depend on the processing

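With an FDR under 0.05, other scalings, DESeq2, limma-voom, robust fitting, other filters, other records or the replicate block, 0 of the 37 genes passed, and the count over all genes (126) lay between 85 and 163, with 96 in the fit with the replicate block. Over records, 1 of 80 passed with robust fitting (WDR45B, edgeR adjusted p = 0.0730) and 1 with the replicate block (WDR45B, edgeR adjusted p = 0.0471). Of all 22375 records, 1.32% passed in the main fit, and the share in the other fits over records is not given here. Records of a gene share reads, so counts of records are not counts of genes. The replicate numbers come from the sample titles and are not stated to mark a shared day or culture, and deviations of same-numbered libraries correlated at 0.0795 across all genes and 0.498 across the 37 genes, which are not independent. With 1 library left out, 70 to 877 of all genes passed (877 without simulated microgravity replicate 1, 212 without its replicate 2 and 70 without static control replicate 1), 0 to 3 of the 37 genes, 0 to 6 of the 80 genes of the further lists and 0 to 5 of the 80 records. The cause was not tested. LAMP2 turned to 0.00065 with library sizes in place of TMM. With 1 library left out, the log2 fold change crossed 0 for ULK1 (-0.0058 to 0.26), ULK3 (-0.083 to 0.094), ATG13 (-0.026 to 0.056), PIK3R4 (-0.014 to 0.12), ATG2A (-0.013 to 0.11), ATG9A (-0.11 to 0.11), ATG3 (-0.061 to 0.17), ATG4B (-0.13 to 0.051), ATG4C (-0.0066 to 0.20), ATG4D (-0.17 to 0.093), ATG10 (-0.082 to 0.15), ATG12 (-0.18 to 0.0018), ATG16L2 (-0.29 to 0.14), GABARAPL2 (-0.043 to 0.056) and LAMP2 (-0.060 to 0.047).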
